A study of Mus musculus with 10 samples.

Results

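The comparison described here follows mouse embryonic stem (ES) cells through 96 h without the inhibitors and cytokine that hold them naive, in the absence of doxycycline (DOX). Its members are 7 of the 10 libraries of the study, chosen by their titles: 3 libraries of cells collected 96 h after 2iL was taken away, set against 4 libraries of cells kept in 2iL, over all genes. The cells are of the E14 line and carry a stable Esrrb construct that DOX can switch on. Both groups carry this construct and neither was given DOX. In 2iL, the serum-free medium N2B27 held 3 µM CHIR99021, 1 µM PD0325901 and LIF. For the 96 h group, sparsely plated single cells on gelatin had 2iL for their first day and plain N2B27 from then on. The libraries came from 2 experiments. Experiment 1 gave 2 libraries to each group, and experiment 2 gave 2 libraries in 2iL and 1 at 96 h. The 3 remaining libraries, at 96 h with DOX, entered the filter, the scaling and the estimate of the spread, and no comparison. The sources used here do not say whether libraries of a group came from separate cultures or clones. Any p-value below therefore reflects how far these libraries scatter, which may be technical.

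CHIR99021 blocks GSK3 and so stabilises beta-catenin, PD0325901 blocks MEK and so lowers ERK signalling, and LIF activates STAT3. Under these 3 signals ES cells hold a transcription factor network like that of the preimplantation epiblast. Once the signals are gone, the cells leave this state and pass through a formative stage related to the early postimplantation epiblast, from which germ layers can be induced. N2B27 without further factors is also the medium in which ES cells are led towards the neural lineage.

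Each library held between 2769071 and 4715450 reads assigned to genes, from the 3′ ends of polyA RNA, and between 12659 and 14723 genes had a read. Log2 levels correlated with r of 0.934 to 0.961 among the 2iL libraries, 0.923 to 0.947 among the 96 h libraries and 0.824 to 0.861 between the groups (across genes, which are not independent replicates). The 2iL libraries of the experiments stood apart in genes of the primitive streak, the site where mesoderm forms. The summed level of 18 such genes was 41.3 and 31.3 CPM (read counts scaled to the library total) in the 2iL libraries of experiment 1, and 214 and 193 CPM in those of experiment 2. T, the defining transcription factor of the streak, measured 4.33, 1.46, 70.6 and 62.5 CPM in the 4 libraries in 2iL, taken in the order experiment 1 library 1, experiment 1 library 2, experiment 2 library 1 and experiment 2 library 2. Cdx1, a posterior patterning gene, measured 0.666, 1.75, 46.4 and 42.1 CPM in the same order. Esrrb, the gene of the construct, measured 378, 229, 331 and 323 CPM in 2iL. At 96 h the summed level of the streak genes was 57.3, 31.1 and 27.3 CPM and that of Esrrb 23.8, 13.6 and 32.0 CPM, in the order experiment 1 library 1, experiment 1 library 2 and experiment 2 library 2. The same orders hold for every set of values below, and counts of calls in a list are also given for experiment 1 alone, or without a library, where they move by over 1.5 times.

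Of the 11215 genes with enough reads to test, 2289 (20.4%) differed between 96 h and 2iL at an adjusted p below 0.05 (edgeR quasi-likelihood test, Benjamini-Hochberg), and such genes are called here. Of these, 1291 genes (11.5%) were higher at 96 h and 998 (8.9%) were lower. These shares are the background for each count of calls in a list or family below. The median log2 fold change was 2.20 among the genes that rose and -1.67 among those that fell, against 0.0039 over all tested genes. A change of at least 2-fold was reached by 1140 of the rising and 814 of the falling genes, and one of at least 16-fold by 152 and 92. The groups' CPM did not overlap for 1222 of the 1291 rising and 948 of the 998 falling genes, and for 3471 of all tested genes (30.9%). Genes that rose took 2.65% to 2.88% of the reads in genes in 2iL and 8.07% to 8.34% at 96 h. Genes that fell went from 9.47% to 10.3% of the reads down to 3.91% to 4.18%. In experiment 1 alone, with 2 libraries a group, 1226 genes were called, 729 higher and 497 lower. Log2 fold changes are given ± an approximate standard error, the absolute change over the square root of the test's F statistic. Mean levels are given ± the standard deviation (SD, n = 4 in 2iL and n = 3 at 96 h), in CPM scaled for library composition. A mean level that rose or fell is given from 2iL to 96 h. In a bulk library, fewer cells expressing a gene and less RNA per cell cannot be told apart.

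**Figure D1:**
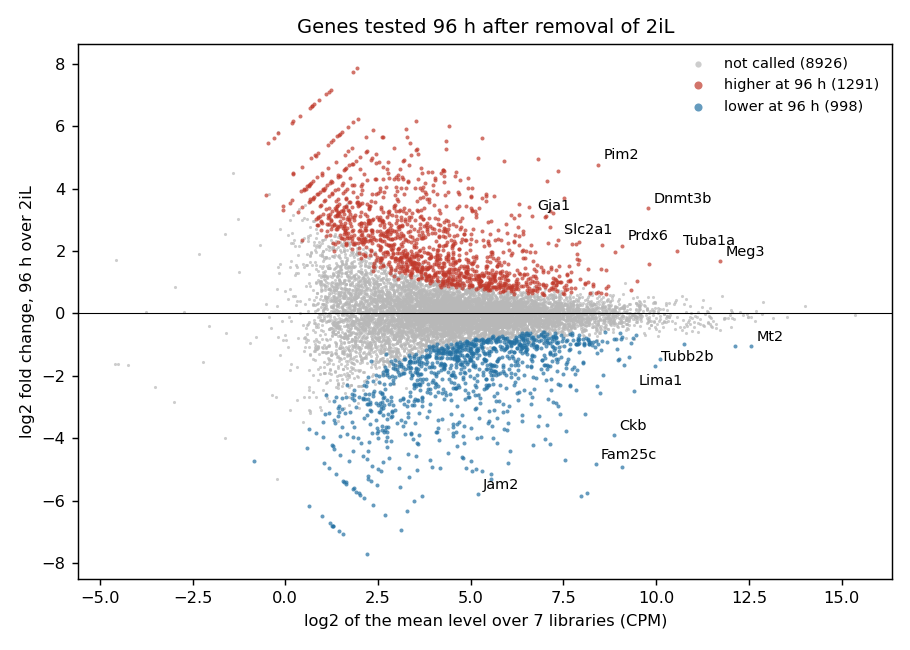
Each point is a tested gene, with the log2 of its mean CPM over the 7 libraries on the horizontal axis and its fitted log2 fold change, 96 h over 2iL, on the vertical axis; 1291 genes higher at 96 h are red, 998 lower at 96 h are blue and genes not called are grey. Called genes lie on both sides at every level, and the diagonal streaks on the left are genes with no or few reads in the lower group.

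Some of the largest shifts in reads came from structural and metabolic genes. They are described from the 12 genes per direction with the largest difference in mean CPM. Meg3, a maternally expressed imprinted noncoding RNA, measured 2067, 2081, 1369 and 1486 CPM in 2iL and 4735, 5479 and 6538 CPM at 96 h. Every 96 h library lay above every 2iL library (log2 fold change 1.67 ± 0.26, adjusted p = 6.35e-05). Tuba1a, an alpha-tubulin of neurons and embryonic cells, measured 1016, 547, 561 and 510.1 CPM in 2iL and 2982, 1593 and 3400.3 CPM at 96 h (log2 fold change 2.01 ± 0.32, adjusted p = 1.01e-04). Prdx6, a peroxiredoxin that reduces peroxides, rose from 218 ± 18.6 to 980.2 ± 182 CPM (log2 fold change 2.17 ± 0.29, adjusted p = 1.41e-05). Marcks, a substrate of protein kinase C at the actin-rich membrane, and Top1, the DNA topoisomerase of transcribed genes, rose as well, with log2 fold changes of 2.20 ± 0.24 (adjusted p = 8.59e-07) and 1.43 ± 0.23 (adjusted p = 1.26e-04). Meg3 had an adjusted p of 0.0708 in experiment 1 alone.

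Among the abundant genes that fell, Eif2s2, a subunit of the translation initiation factor eIF2, measured 5704, 6077, 5383 and 5757 CPM in 2iL and 2458, 3006 and 2827 CPM at 96 h. The groups lay far apart (log2 fold change -1.05 ± 0.26, adjusted p = 0.00527), and the 2iL libraries differed little among themselves. Ckb, the brain-type creatine kinase that buffers ATP, showed one of the steepest falls at high level, from 779 ± 72.5 to 52.1 ± 8.27 CPM (log2 fold change -3.90 ± 0.25, adjusted p = 2.14e-09). Fam25c fell from 563 ± 137 to 19.8 ± 3.97 CPM (log2 fold change -4.83 ± 0.35, adjusted p = 7.80e-09). Lima1, an actin-binding LIM protein, measured 1423, 683, 935 and 1095 CPM in 2iL and 185, 116 and 256 CPM at 96 h, and the 96 h libraries stayed below the lowest 2iL library (log2 fold change -2.48 ± 0.34, adjusted p = 1.62e-05). Tdh, the threonine dehydrogenase on which mouse ES cells depend for one-carbon units, measured 1000.1, 696, 719 and 749 CPM in 2iL and 245, 212 and 299 CPM at 96 h (log2 fold change -1.65 ± 0.31, adjusted p = 4.92e-04). Gpx1, a glutathione peroxidase, and Cd63, a tetraspanin of late endosomes, fell by 1.46 and 0.99 on the log2 scale (adjusted p = 5.85e-04 and 0.00665). Npc2, the cholesterol carrier of the lysosome, fell from 835 ± 116 to 319 ± 84.3 CPM (log2 fold change -1.39 ± 0.24, adjusted p = 2.18e-04). Eif2s2 and Npc2 had adjusted p-values of 0.139 and 0.0543 in experiment 1 alone.

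The steepest fold changes came from genes near silence in one of the groups. Slc45a1, a sugar transporter of the brain, had no read in the 4 libraries in 2iL and 8.81, 11.6 and 6.17 CPM at 96 h, at least 37.9-fold higher when set against a floor of 3 reads over the group. Jakmip2, a microtubule-associated protein enriched in neurons, measured 0.333, 0, 0.614 and 0.370 CPM in 2iL and 32.6, 25.02 and 21.7 CPM at 96 h (log2 fold change 6.19 ± 0.60, adjusted p = 2.94e-07). Lrrc3, a membrane protein with leucine-rich repeats, measured 0.333, 0.292, 0 and 0.739 CPM in 2iL and 24.7, 12.3 and 29.1 CPM at 96 h (log2 fold change 5.92 ± 0.72, adjusted p = 4.10e-06). Each of these genes was read in every 96 h library and at under 1 CPM in every 2iL library. Btbd17 rose from 1.79 ± 0.440 to 90.3 ± 45.4 CPM (log2 fold change 5.64 ± 0.50, adjusted p = 8.55e-08), and its neighbour genes Gprc5c and Slc9a3r1 on chromosome 11 rose too. Enho, which encodes a secreted metabolic peptide, measured 0.666, 1.17, 0.614 and 2.22 CPM in 2iL and 37.9, 45.3 and 53.5 CPM at 96 h (log2 fold change 5.27 ± 0.51, adjusted p = 2.35e-07). Miat, a long noncoding RNA known from heart and retina, measured 0.333, 0.585, 0.921 and 0.739 CPM in 2iL and 27.6, 16.0 and 36.4 CPM at 96 h (log2 fold change 5.28 ± 0.53, adjusted p = 4.32e-07).

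In the opposite direction, Ly6a, the glycosylphosphatidylinositol-anchored antigen Sca-1, measured 92.9, 106, 67.9 and 55.4 CPM in 2iL and 2.06, 2.37 and 1.47 CPM at 96 h (log2 fold change -5.31 ± 0.54, adjusted p = 5.14e-07). Khdc3, a member of the maternal subcortical complex that ES cells also express, measured 51.6, 37.7, 73.1 and 63.6 CPM in 2iL and 2.06, 1.94 and 0.881 CPM at 96 h (log2 fold change -5.07 ± 0.50, adjusted p = 3.76e-07). Both were read in every 2iL library at over 35 CPM and in every 96 h library at under 3 CPM. Osm, a cytokine of the LIF family, had 208 reads in 2iL and 2 reads at 96 h, a ratio of reads of 96.1, with an exact 95% counting interval of 26.3 to 799. H2-Eb1, the beta chain of a class II antigen-presenting molecule, had 137 reads in 2iL and 1 at 96 h, in the first library of experiment 1, a ratio of reads of 127, with an exact 95% counting interval of 22.4 to 5038.

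The naive transcription factors fell almost as a set: 15 of the 17 tested were lower, none was higher, and their median log2 fold change was -3.59. Without any single library 14 to 16 of the 17 were called lower. Among the members not called, Gbx2, a homeobox factor, measured 11.99, 4.39, 19.7 and 13.3 CPM in 2iL and 2.94, 7.12 and 2.94 CPM at 96 h, and its groups overlapped (log2 fold change -1.48, adjusted p = 0.0663). The depth of the fall differed among the members. Nr5a2, an orphan nuclear receptor, measured 185, 155, 104 and 97.96 CPM in 2iL and 13.8, 10.4 and 18.2 CPM at 96 h (log2 fold change -3.27 ± 0.33, adjusted p = 3.86e-07). Klf5, a zinc finger factor of the Klf trio, measured 265, 272, 353 and 356 CPM in 2iL and 83.1, 49.8 and 58.2 CPM at 96 h, and so kept a measurable level (log2 fold change -2.29 ± 0.31, adjusted p = 1.55e-05). Mybl2, better known as B-Myb of the cell cycle, kept more of its level still, with 248, 235, 157 and 172 CPM in 2iL and 71.6, 51.1 and 87.5 CPM at 96 h (log2 fold change -1.54 ± 0.27, adjusted p = 3.35e-04). Tcea3, a transcription elongation factor, fell by 1.17 ± 0.25 on the log2 scale (adjusted p = 0.00148). Nr0b1, the corepressor Dax1, measured 12.3, 20.5, 20.6 and 27.4 CPM in 2iL and 2.35, 1.08 and 0.588 CPM at 96 h (log2 fold change -3.89 ± 0.53, adjusted p = 1.59e-05). Nr0b1 had a log2 fold change of -4.49 without the 96 h library exp1_1 (adjusted p = 5.67e-05).

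Of the naive effectors and surface markers, 17 of 18 tested were lower and none was higher (median log2 fold change -2.46). Tcl1, a coactivator of the kinase Akt, measured 398, 402, 209 and 255 CPM in 2iL and 10.9, 11.2 and 14.7 CPM at 96 h. Its 2iL libraries of experiment 2 lay below those of experiment 1, and all 4 lay far above the 96 h libraries (log2 fold change -4.69 ± 0.34, adjusted p = 7.80e-09). Calcoco2, an autophagy receptor, measured 63.3, 75.7, 64.2 and 37.7 CPM in 2iL and 1.17, 1.51 and 2.94 CPM at 96 h (log2 fold change -5.00 ± 0.53, adjusted p = 8.54e-07). Jam2, a junctional adhesion molecule, measured 40.0, 87.1, 71.3 and 53.6 CPM in 2iL and 0.294, 2.16 and 0.588 CPM at 96 h (log2 fold change -5.79 ± 0.54, adjusted p = 1.60e-07). Tet2, a dioxygenase that oxidises 5-methylcytosine, measured 34.6, 39.2, 11.98 and 27.0 CPM in 2iL and 2.94, 2.80 and 2.06 CPM at 96 h (log2 fold change -3.42 ± 0.47, adjusted p = 1.96e-05). Jam2 had a log2 fold change of -7.04 without the 96 h library exp1_2 (adjusted p = 5.20e-07).

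General pluripotency genes, which both naive and primed cells express, moved in both directions: 4 of 17 rose, 3 fell and 10 were not called, and their median log2 fold change was 0.13. The genes that rose were Lin28a, Epcam, Utf1 and Dppa4. Lin28a, an RNA-binding protein that blocks maturation of let-7, measured 81.6, 101, 82.0 and 100.2 CPM in 2iL and 405, 507 and 427 CPM at 96 h (log2 fold change 2.29 ± 0.21, adjusted p = 1.44e-07). Epcam, an epithelial adhesion molecule, measured 17.3, 22.5, 38.7 and 31.4 CPM in 2iL and 158, 169.9 and 152 CPM at 96 h (log2 fold change 2.54 ± 0.25, adjusted p = 3.86e-07). Utf1, a chromatin-bound factor of ES cells, rose from 123 ± 24.5 to 404 ± 76.2 CPM (log2 fold change 1.71 ± 0.22, adjusted p = 9.37e-06), and Dppa4 from 164 ± 17.0 to 356 ± 96.8 CPM (log2 fold change 1.12 ± 0.23, adjusted p = 0.00123). In all 4 cases the lowest 96 h library lay above the highest 2iL library. The genes that fell were Nodal, Sox2 and Gdf3, and experiment 1 alone called 1 lower. Gdf3 lost its call without the 2iL library exp1_1 or exp2_2 or the 96 h library exp1_1 or exp2_2 (adjusted p = 0.0509 to 0.111). Nodal, a TGF-beta ligand of the epiblast, measured 68.9, 86.9, 62.04 and 62.5 CPM in 2iL and 29.4, 18.8 and 18.2 CPM at 96 h (log2 fold change -1.67 ± 0.36, adjusted p = 0.00204). Among genes not called, Sall4 gave log2 fold change 0.25 (adjusted p = 0.543), Trim71 0.22 (adjusted p = 0.521), Zfp281 -0.02 (adjusted p = 0.969) and Rif1 0.13 (adjusted p = 0.759).

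Formative epiblast genes rose in 15 of 20 cases, and none fell (median log2 fold change 2.78). Pim2 (ENSMUSG00000031155, chrX:7878262-7883432, mm10), a serine/threonine kinase that promotes survival, had the largest gain in level of this list after Dnmt3b, with 26.0, 31.3, 30.4 and 24.8 CPM in 2iL and 763, 423 and 1135 CPM at 96 h. The 96 h libraries differed widely among themselves and all lay above 2iL (log2 fold change 4.78 ± 0.36, adjusted p = 8.93e-09). Sox4, a transcription factor of the SoxC group, measured 21.0, 24.0, 45.1 and 42.1 CPM in 2iL and 332, 303 and 284 CPM at 96 h (log2 fold change 3.21 ± 0.26, adjusted p = 3.08e-08). Sall2, a zinc finger factor of the spalt family, measured 8.33, 6.43, 6.45 and 5.91 CPM in 2iL and 42.0, 74.6 and 25.9 CPM at 96 h (log2 fold change 2.81 ± 0.42, adjusted p = 4.88e-05). Tcf15, a basic helix-loop-helix factor that marks cells primed for epiblast fates, measured 21.3, 21.1, 12.9 and 18.1 CPM in 2iL and 61.1, 83.5 and 136 CPM at 96 h (log2 fold change 2.35 ± 0.30, adjusted p = 7.60e-06). The zinc finger factors Zic2 and Zic5 rose to 33.4 and 71.8 CPM on average (log2 fold change 2.49 ± 0.43 and 1.68 ± 0.28, adjusted p = 2.23e-04 and 1.43e-04). Members that were not called were Cdh2 (log2 fold change 1.05), Slc7a3 (0.50), Tcf7l1 (-0.01), Etv4 (-0.16) and Rbpj (-0.35). Tcf7l1, the repressor of Wnt targets that beta-catenin relieves, measured 330.4, 276, 138 and 126 CPM in 2iL and 277, 211 and 161 CPM at 96 h, with the 2iL libraries of experiment 2 well below those of experiment 1. Car14, a membrane carbonic anhydrase, measured 0, 0.292, 0.307 and 2.59 CPM in 2iL and 22.6, 22.6 and 35.8 CPM at 96 h (log2 fold change 5.11 ± 0.63, adjusted p = 4.64e-06). Car14 had a log2 fold change of 6.80 without the 2iL library exp2_2 (adjusted p = 7.51e-07).

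Of 17 neural genes tested, 7 rose and 2 fell (median log2 fold change 1.54), and 11 of the 28 listed genes had too few reads. Without the 2iL library exp1_1 or the 96 h library exp1_2, 1 was called lower. Sox3, a SoxB1 factor of the neural plate and late epiblast, measured 14.7, 9.94, 18.4 and 17.7 CPM in 2iL and 289.5, 204 and 370.2 CPM at 96 h (log2 fold change 4.24 ± 0.34, adjusted p = 2.03e-08). Irx3, an Iroquois homeobox factor, measured 5.33, 4.09, 4.30 and 6.65 CPM in 2iL and 69.9, 38.0 and 97.5 CPM at 96 h (log2 fold change 3.75 ± 0.42, adjusted p = 1.34e-06). Gap43, a growth cone protein, measured 1.67, 3.22, 3.69 and 2.96 CPM in 2iL and 24.1, 34.1 and 16.7 CPM at 96 h (log2 fold change 3.10 ± 0.402, adjusted p = 8.89e-06). Nes, the neural progenitor filament nestin, rose from 17.6 ± 6.76 to 53.5 ± 3.65 CPM (log2 fold change 1.6 ± 0.30, adjusted p = 5.40e-04). Crabp2, which carries retinoic acid to its receptors, measured 1.33, 2.92, 2.15 and 3.33 CPM in 2iL and 40.2, 27.2 and 26.1 CPM at 96 h (log2 fold change 3.66 ± 0.4, adjusted p = 1.04e-06). The defining neuroectoderm factors stayed low: Pax6 measured 3.996, 4.09, 2.15 and 3.33 CPM in 2iL and 6.75, 11.9 and 5.29 CPM at 96 h (log2 fold change 1.23, adjusted p = 0.1498) and Hes5 1.998, 3.51, 2.15 and 2.96 CPM in 2iL and 6.75, 13.2 and 3.23 CPM at 96 h (log2 fold change 1.54, adjusted p = 0.0875). Tubb3, the neuronal beta-tubulin, measured 539, 714, 169.5 and 207 CPM in 2iL and 544, 1197 and 657 CPM at 96 h, so its 2iL libraries of experiment 1 overlapped the 96 h libraries (log2 fold change 0.97, adjusted p = 0.284). Mapt, the neuronal tau protein, fell from 18.6 ± 7.88 to 2.64 ± 0.511 CPM (log2 fold change -2.79 ± 0.51, adjusted p = 4.24e-04). Among 10 retinoid genes 3 rose and none fell, and Rarg, a retinoic acid receptor, measured 14.0, 20.2, 7.37 and 6.65 CPM in 2iL and 38.5, 62.3 and 71.1 CPM at 96 h (log2 fold change 2.24 ± 0.43, adjusted p = 7.45e-04).

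Summed levels of markers of other cell types differed between the lists. The 20 extraembryonic endoderm genes summed to 850, 1067, 862 and 959 CPM in 2iL and 588, 801 and 549 CPM at 96 h. The 13 trophoblast genes summed to 125, 113, 122 and 138 CPM in 2iL and 95.1, 123 and 82.8 CPM at 96 h. Of 7 streak and mesoderm genes tested none rose, and Nkx1-2, a posterior homeobox gene, fell, with 17.0, 14.3, 35.0 and 36.2 CPM in 2iL and 8.52, 7.12 and 9.40 CPM at 96 h (log2 fold change -1.62 ± 0.44, adjusted p = 0.0120). Of 15 extraembryonic endoderm genes 3 rose and 4 fell, and in experiment 1 alone 3 were higher and none lower. The genes that rose were Lamb1 and Col4a1, of basement membranes, and Dab2, an endocytic adaptor. Among those that fell were 2 other laminin chains, Lama1 (log2 fold change -1.51) and Lamc1, whose values are given below. Lama1 lost its call without the 2iL library exp2_2 or the 96 h library exp1_2 (adjusted p = 0.0562 and 0.0550). The median log2 fold change of the 15 genes was -0.48, with a range of -4.72 to 2.36. The lowest value of that range, -4.72, belonged to Foxq1, a forkhead factor of the list. Foxa2, another listed forkhead factor, measured 1.33, 0.292, 2.46 and 0 CPM in 2iL and 0.294, 2.16 and 0 CPM at 96 h. Levels of the other listed endoderm factors are not given here. Among 5 trophoblast genes Krt18, a simple-epithelium keratin, rose from 10.3 ± 1.45 to 52.9 ± 17.0 CPM (log2 fold change 2.36 ± 0.33, adjusted p = 1.83e-05), and Tfap2c, an AP-2 factor also expressed in naive cells, fell from 78.4 ± 8.44 to 20.6 ± 2.55 CPM (log2 fold change -1.93 ± 0.27, adjusted p = 2.47e-05). The summed level of 11 fibroblast markers was 3.66 to 13.5 CPM in 2iL and 25.3 to 31.7 CPM at 96 h, with Thy1 and Fbn1 called (1 of them without the 96 h library exp1_1 or exp1_2) and Col1a1 between 0.666, 1.75, 1.54 and 5.54 CPM in 2iL and 0.881, 0.431 and 4.99 CPM at 96 h. Of 10 blood and macrophage markers, only Cd68 had enough reads to test, and the sums overlapped (10.3 to 28.4 CPM in 2iL, 8.52 to 31.3 CPM at 96 h). Of 12 markers of the 2-cell-like state 9 were matched by name, and none of these had enough reads. Nkx1-2 had a log2 fold change of -1.43 without the 2iL library exp2_1 (adjusted p = 0.0575). Nkx1-2 had a log2 fold change of -1.40 without the 2iL library exp2_2 (adjusted p = 0.0566). Nkx1-2 had a log2 fold change of -1.51 without the 96 h library exp1_2 (adjusted p = 0.0533). Nkx1-2 had an adjusted p of 0.358 in experiment 1 alone.

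Wnt receptors and ligands were rearranged: of 18 tested, 6 rose and 3 fell. The Frizzled receptors, which bind Wnt ligands at the cell surface, moved in opposite directions. Fzd2 measured 6.99, 7.02, 6.45 and 8.87 CPM in 2iL and 79.6, 80.4 and 71.4 CPM at 96 h (log2 fold change 3.39 ± 0.26, adjusted p = 1.43e-08). Fzd7 rose from 4.11 ± 3.18 to 22.0 ± 6.61 CPM (log2 fold change 2.40 ± 0.49, adjusted p = 0.00115). Fzd5 measured 74.9, 61.1, 62.04 and 68.02 CPM in 2iL and 11.7, 12.5 and 14.98 CPM at 96 h (log2 fold change -2.34 ± 0.27, adjusted p = 2.03e-06), and Fzd10 measured 47.3, 31.6, 80.5 and 67.3 CPM in 2iL and 9.10, 4.10 and 7.93 CPM at 96 h (log2 fold change -3.02 ± 0.46, adjusted p = 6.37e-05). Fzd2 was above 70 CPM at 96 h and under 10 CPM in 2iL, whereas Fzd5 was under 15 CPM at 96 h and above 60 CPM in 2iL. Ror1, a receptor for noncanonical Wnt ligands, measured 0, 0.585, 0.614 and 0.370 CPM in 2iL and 7.34, 9.70 and 2.94 CPM at 96 h (log2 fold change 3.94 ± 0.83, adjusted p = 0.00164). Of 17 genes of the beta-catenin and TCF group 2 rose and 5 fell, against 1 and 3 in experiment 1 alone. Sfrp1, a secreted inhibitor that binds Wnt, measured 169, 261, 172 and 183 CPM in 2iL and 33.8, 66.2 and 32.6 CPM at 96 h (log2 fold change -2.14 ± 0.28, adjusted p = 8.67e-06), while Nkd2, an inhibitor acting on Dishevelled, rose from 1.28 ± 0.928 to 8.08 ± 1.03 CPM (log2 fold change 2.61 ± 0.63, adjusted p = 0.00494). The 2iL libraries of experiment 2 were higher than those of experiment 1 for the targets Axin2 (19.3, 17.3, 47.9 and 37.7 CPM) and Sp5 (31.6, 40.1, 181 and 197 CPM), both of which were lower at 96 h also in experiment 1 alone. Nkd2 had an adjusted p of 0.0618 in experiment 1 alone.

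Genes of LIF and STAT3 signalling, receptors and kinases as well as targets, fell in 12 of 19 cases and none rose (median log2 fold change -1.91). Stat3, the factor itself, measured 223, 137, 129 and 148 CPM in 2iL and 30.2, 18.3 and 42.0 CPM at 96 h (log2 fold change -2.41 ± 0.32, adjusted p = 1.05e-05). Interferon and innate sensing genes, several of which need STAT factors, fell in 8 of 15 cases and rose in 1 (median -1.15). Oas1a, an antiviral oligoadenylate synthetase, measured 4.995, 9.07, 11.1 and 7.39 CPM in 2iL and 0.294, 0.647 and 0.294 CPM at 96 h (log2 fold change -4.14 ± 0.90, adjusted p = 0.00201). The exception was Bst2, the virus-tethering membrane protein tetherin, with 56.6, 64.6, 73.7 and 126 CPM in 2iL and 205, 213 and 264 CPM at 96 h, higher in all 3 libraries at 96 h (log2 fold change 1.502 ± 0.27, adjusted p = 3.31e-04). Of 10 listed genes of antigen presentation, 4 rose and none fell. H2-Eb1, described above as falling, is not on that list. Only 2 were called higher without the 2iL library exp1_2 or exp2_1 or the 96 h library exp2_2, and experiment 1 alone called 2 higher and 1 lower. H2-K1, a class I heavy chain, measured 4.33, 4.39, 2.46 and 8.502 CPM in 2iL and 22.3, 19.6 and 46.4 CPM at 96 h, with the library of experiment 2 the highest (log2 fold change 2.59 ± 0.41, adjusted p = 9.51e-05). Among the interferon genes 4 to 7 of 15 were called lower without any 1 library, with 5 without the 2iL library exp1_2, 4 without the 96 h library exp2_2 and 5 in experiment 1 alone.

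Of 22 genes of FGF signalling and ERK feedback, 6 rose and 1 fell. Spred3, an inhibitor of the Ras pathway, measured 3.00, 4.97, 3.38 and 4.81 CPM in 2iL and 53.7, 99.2 and 43.8 CPM at 96 h (log2 fold change 4.01 ± 0.41, adjusted p = 5.17e-07). Fgf4, the FGF ligand that ES cells make, was the gene that fell, with 163, 178, 121 and 96.9 CPM in 2iL and 40.2, 50.5 and 40.8 CPM at 96 h (log2 fold change -1.67 ± 0.25, adjusted p = 4.94e-05). Fgfr2, a receptor for FGF ligands, measured 0, 5.26, 2.46 and 0 CPM in 2iL and 15.9, 9.92 and 13.8 CPM at 96 h, so it was unread in 2 of the 4 libraries in 2iL (log2 fold change 2.68 ± 0.69, adjusted p = 0.00773). Fgfr2 had a log2 fold change of 3.84 without the 2iL library exp1_2 (adjusted p = 0.00128). Fgfr2 had an adjusted p of 0.0978 in experiment 1 alone.

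The Nodal, BMP and Smad group leaned downward, with 3 of 29 genes higher and 9 lower. Bmp4, a BMP ligand, measured 26.0, 20.2, 26.4 and 22.2 CPM in 2iL and 3.23, 1.73 and 3.23 CPM at 96 h (log2 fold change -3.12 ± 0.51, adjusted p = 1.23e-04). Acvr2b, an activin receptor, rose from 39.9 ± 11.2 to 98.7 ± 37.3 CPM (log2 fold change 1.31 ± 0.28, adjusted p = 0.00189), and Skil, a repressor of Smad activity, from 13.9 ± 2.10 to 35.4 ± 5.22 CPM (log2 fold change 1.35 ± 0.28, adjusted p = 0.00128).

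Notch pathway genes rose in 7 of 17 cases and fell in 1. Dtx4, a ubiquitin ligase of the Deltex family, measured 6.33, 7.31, 9.83 and 5.54 CPM in 2iL and 104, 92.3 and 74.6 CPM at 96 h (log2 fold change 3.62 ± 0.33, adjusted p = 1.21e-07). Mfng, a Fringe glycosyltransferase that tunes which ligands Notch answers, measured 0.999, 1.17, 0.307 and 0.739 CPM in 2iL and 18.5, 23.3 and 8.81 CPM at 96 h (log2 fold change 4.33 ± 0.66, adjusted p = 6.25e-05). Both were higher in every 96 h library than in any 2iL library. The ligands Jag2 and Dll3 and a second Fringe gene, Lfng, were also called higher, whereas the target Hes1 was called lower. Without any 1 library, 5 to 7 of the 17 were called higher. Hes1 lost its call without the 2iL library exp2_1 or exp2_2 or the 96 h library exp1_1, and in experiment 1 alone.

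Guidance genes changed often and in both directions: 12 of 31 tested rose and 6 fell. Epha4, an Eph receptor, measured 95.2, 93.9, 110.0 and 74.7 CPM in 2iL and 12.04, 18.3 and 6.46 CPM at 96 h (log2 fold change -2.91 ± 0.33, adjusted p = 1.41e-06). Slit2, a repulsive ligand, fell from 17.0 ± 6.39 to 3.49 ± 0.835 CPM (log2 fold change -2.26 ± 0.52, adjusted p = 0.00345). Its relative Slit3 had 2 reads in 2iL and 61 at 96 h, a ratio of reads of 33.0, with an exact 95% counting interval of 8.75 to 279. Among semaphorins, Sema4c measured 0.999, 1.46, 3.69 and 2.96 CPM in 2iL and 21.1, 11.2 and 24.4 CPM at 96 h (log2 fold change 3.03 ± 0.49, adjusted p = 1.17e-04), and Sema3e measured 0.999, 0.292, 0.614 and 0.370 CPM in 2iL and 7.93, 22.2 and 14.4 CPM at 96 h (log2 fold change 4.63 ± 0.73, adjusted p = 8.56e-05). Sema4b went the other way, from 43.5 ± 3.47 to 16.5 ± 5.62 CPM (log2 fold change -1.39 ± 0.30, adjusted p = 0.00190). Sema6a, a transmembrane semaphorin, measured 0.666, 1.46, 4.61 and 1.85 CPM in 2iL and 45.8, 29.8 and 25.9 CPM at 96 h (log2 fold change 3.94 ± 0.45, adjusted p = 1.87e-06). Sema6a had a log2 fold change of 4.64 without the 2iL library exp2_1 (adjusted p = 1.64e-06). Sema4b had an adjusted p of 0.0548 in experiment 1 alone.

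Of 30 genes of other growth factor and hedgehog signalling, 10 rose and 5 fell. These counts depended on single libraries: 6 to 7 were called higher and 3 to 5 lower without any 1 library, and 4 and 2 in experiment 1 alone. The lowest count of rising genes, 6, came without the 2iL library exp2_2 or the 96 h library exp1_1 or exp2_2, and that of falling genes, 3, without the 2iL library exp2_2 or the 96 h library exp1_2 or exp2_2. Ligands of the platelet-derived growth factor family were among those that fell. Pdgfa measured 297, 268, 244 and 299 CPM in 2iL and 33.8, 23.1 and 33.2 CPM at 96 h (log2 fold change -3.21 ± 0.26, adjusted p = 2.47e-08), and the highest 96 h library stayed below 34 CPM. Receptors were among those that rose. Igf1r, the receptor for insulin-like growth factors, measured 2.66, 4.39, 7.37 and 4.07 CPM in 2iL and 24.7, 26.5 and 31.7 CPM at 96 h (log2 fold change 2.56 ± 0.46, adjusted p = 3.09e-04). Mertk, a phagocytic receptor tyrosine kinase, measured 2.66, 1.17, 3.07 and 1.11 CPM in 2iL and 21.7, 16.0 and 24.4 CPM at 96 h (log2 fold change 3.33 ± 0.43, adjusted p = 8.59e-06), and Met, the receptor for hepatocyte growth factor, 0.999, 0.292, 1.23 and 1.11 CPM in 2iL and 7.05, 9.06 and 8.52 CPM at 96 h (log2 fold change 3.14 ± 0.72, adjusted p = 0.00313). Smo, the hedgehog signal transducer, rose from 2.67 ± 0.711 to 14.4 ± 6.85 CPM (log2 fold change 2.42 ± 0.50, adjusted p = 0.00136). Kit, the receptor for stem cell factor, fell, with 33.0, 47.1, 38.1 and 32.5 CPM in 2iL and 7.93, 1.29 and 0 CPM at 96 h (log2 fold change -3.64 ± 0.64, adjusted p = 3.02e-04). Kit had a log2 fold change of -5.63 without the 96 h library exp1_1 (adjusted p = 1.05e-05). Smo had an adjusted p of 0.0663 in experiment 1 alone.

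Genes of cell junctions moved in both directions. Connexins build channels between neighbouring cells. Gja1, connexin 43 (ENSMUSG00000050953, chr10:56377330-56402513, mm10), measured 22.0, 21.9, 20.3 and 28.5 CPM in 2iL and 189, 184 and 236 CPM at 96 h (log2 fold change 3.13 ± 0.24, adjusted p = 1.57e-08). Gjb5, a beta-type connexin (ENSMUSG00000042357, chr4:127354809-127358181), went down, with 48.6, 33.0, 48.8 and 64.7 CPM in 2iL and 13.5, 2.80 and 6.76 CPM at 96 h (log2 fold change -2.68 ± 0.42, adjusted p = 9.00e-05). Gjc1, connexin 45, fell from 83.6 ± 8.14 to 25.2 ± 2.66 CPM (log2 fold change -1.73 ± 0.24, adjusted p = 2.21e-05). The claudins, which seal tight junctions, rose in 2 of 6 tested cases. Cldn7 measured 6.66, 2.63, 8.29 and 9.61 CPM in 2iL and 72.8, 71.8 and 57.0 CPM at 96 h (log2 fold change 3.31 ± 0.38, adjusted p = 1.66e-06), and Cldn6 0.666, 2.05, 1.23 and 2.22 CPM in 2iL and 17.9, 9.92 and 12.6 CPM at 96 h (log2 fold change 3.10 ± 0.53, adjusted p = 2.11e-04). Over the whole list of cadherins and junction genes, 6 of 25 rose and 3 fell. Gjb5 had a log2 fold change of -3.37 without the 96 h library exp1_1 (adjusted p = 3.83e-05).

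Integrin and matrix genes split evenly, with 6 of 26 higher and 6 lower. Basement membrane components were on both sides. Nid1, the linker nidogen, measured 21.0, 27.8, 15.05 and 16.3 CPM in 2iL and 1.47, 0.863 and 0.881 CPM at 96 h (log2 fold change -4.20 ± 0.64, adjusted p = 5.63e-05), and its paralog Nid2 fell from 72.3 ± 7.53 to 20.3 ± 4.07 CPM (log2 fold change -1.84 ± 0.26, adjusted p = 2.00e-05). Lamb1, the laminin beta-1 chain, measured 10.99, 10.8, 28.6 and 33.6 CPM in 2iL and 84.3, 70.7 and 92.8 CPM at 96 h, whereas Lamc1, the gamma-1 chain of the same trimer, measured 44.0, 42.7, 31.0 and 53.6 CPM in 2iL and 20.3, 15.7 and 7.34 CPM at 96 h (log2 fold change 1.98 ± 0.32 and -1.56 ± 0.39, adjusted p = 1.27e-04 and 0.00628). Fn1, fibronectin, measured 273, 330.1, 363 and 341 CPM in 2iL and 84.6, 81.7 and 86.4 CPM at 96 h (log2 fold change -1.96 ± 0.31, adjusted p = 9.93e-05). Spp1, the secreted phosphoprotein osteopontin, fell from 84.7 ± 16.7 to 8.15 ± 2.24 CPM (log2 fold change -3.36 ± 0.34, adjusted p = 4.80e-07). Col18a1, whose collagen lies in basement membranes, rose from 35.9 ± 8.92 to 146 ± 25.5 CPM (log2 fold change 2.02 ± 0.25, adjusted p = 4.64e-06). Itga3, an alpha subunit of laminin receptors, measured 1.67, 2.63, 2.76 and 2.22 CPM in 2iL and 12.3, 17.0 and 14.7 CPM at 96 h (log2 fold change 2.64 ± 0.43, adjusted p = 1.38e-04). Lamc1 had an adjusted p of 0.0944 in experiment 1 alone.

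Actin and intermediate filament genes rose in 10 of 39 cases and fell in 5, or 3 without the 96 h library exp1_2 or exp2_2. The calponins, which bind actin, rose: Cnn2 measured 7.66, 7.02, 7.37 and 3.33 CPM in 2iL and 76.3, 77.6 and 99.0 CPM at 96 h (log2 fold change 3.71 ± 0.30, adjusted p = 3.11e-08), and Cnn1 1.33, 0.585, 1.84 and 1.48 CPM in 2iL and 3.82, 24.4 and 23.2 CPM at 96 h, with the first 96 h library of experiment 1 well below the others (log2 fold change 3.69 ± 0.63, adjusted p = 2.07e-04). Tpm2, the beta chain of tropomyosin, measured 6.66, 6.43, 9.52 and 3.33 CPM in 2iL and 54.9, 53.5 and 54.9 CPM at 96 h (log2 fold change 3.05 ± 0.32, adjusted p = 6.05e-07). The 3 libraries at 96 h differed by under 2 CPM. Myl9, a regulatory light chain of nonmuscle myosin, measured 0.333, 0.877, 2.15 and 0.370 CPM in 2iL and 40.8, 56.5 and 40.8 CPM at 96 h (log2 fold change 5.53 ± 0.53, adjusted p = 2.48e-07). Lmna, the A-type nuclear lamin, went down, with 50.6, 38.0, 78.6 and 44.0 CPM in 2iL and 13.2, 11.9 and 15.6 CPM at 96 h (log2 fold change -1.96 ± 0.41, adjusted p = 0.00151). The neurofilament chains Nefl and Nefm, although neural in name, also fell, by 1.66 and 1.67 on the log2 scale (adjusted p = 1.91e-04 and 0.00118). Myl9 had a log2 fold change of 6.31 without the 2iL library exp2_1 (adjusted p = 8.71e-07).

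Tubulins and their partners were among the most often called lists, with 13 of 28 higher and 6 lower, or 3 lower without the 2iL library exp1_1 or the 96 h library exp1_2. Tubulin isotypes moved in both directions. Tubb2b, a beta-tubulin, measured 2175, 1257, 1153 and 1127 CPM in 2iL and 428, 329.5 and 573 CPM at 96 h (log2 fold change -1.69 ± 0.29, adjusted p = 1.86e-04), and the alpha-tubulin Tuba3a 135, 132, 132 and 203 CPM in 2iL and 31.1, 20.7 and 26.1 CPM at 96 h (log2 fold change -2.53 ± 0.30, adjusted p = 2.54e-06), while Tuba1a rose as given above. Near-identical tubulin genes can share reads at their ends, and reads without a unique alignment were not counted, so these values may miss reads. Crmp1, a collapsin response mediator of growing axons, measured 7.33, 11.7, 5.53 and 3.70 CPM in 2iL and 73.7, 55.2 and 83.4 CPM at 96 h (log2 fold change 3.30 ± 0.399, adjusted p = 3.86e-06). Kif1a, a kinesin motor of synaptic vesicle precursors, measured 3.33, 3.80, 0 and 2.59 CPM in 2iL and 47.0, 56.7 and 52.0 CPM at 96 h (log2 fold change 4.40 ± 0.49, adjusted p = 1.31e-06). Map2, a dendritic microtubule-associated protein, measured 1.67, 5.26, 3.07 and 2.59 CPM in 2iL and 34.1, 17.3 and 28.5 CPM at 96 h (log2 fold change 3.05 ± 0.45, adjusted p = 4.08e-05).

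**Figure D2:**
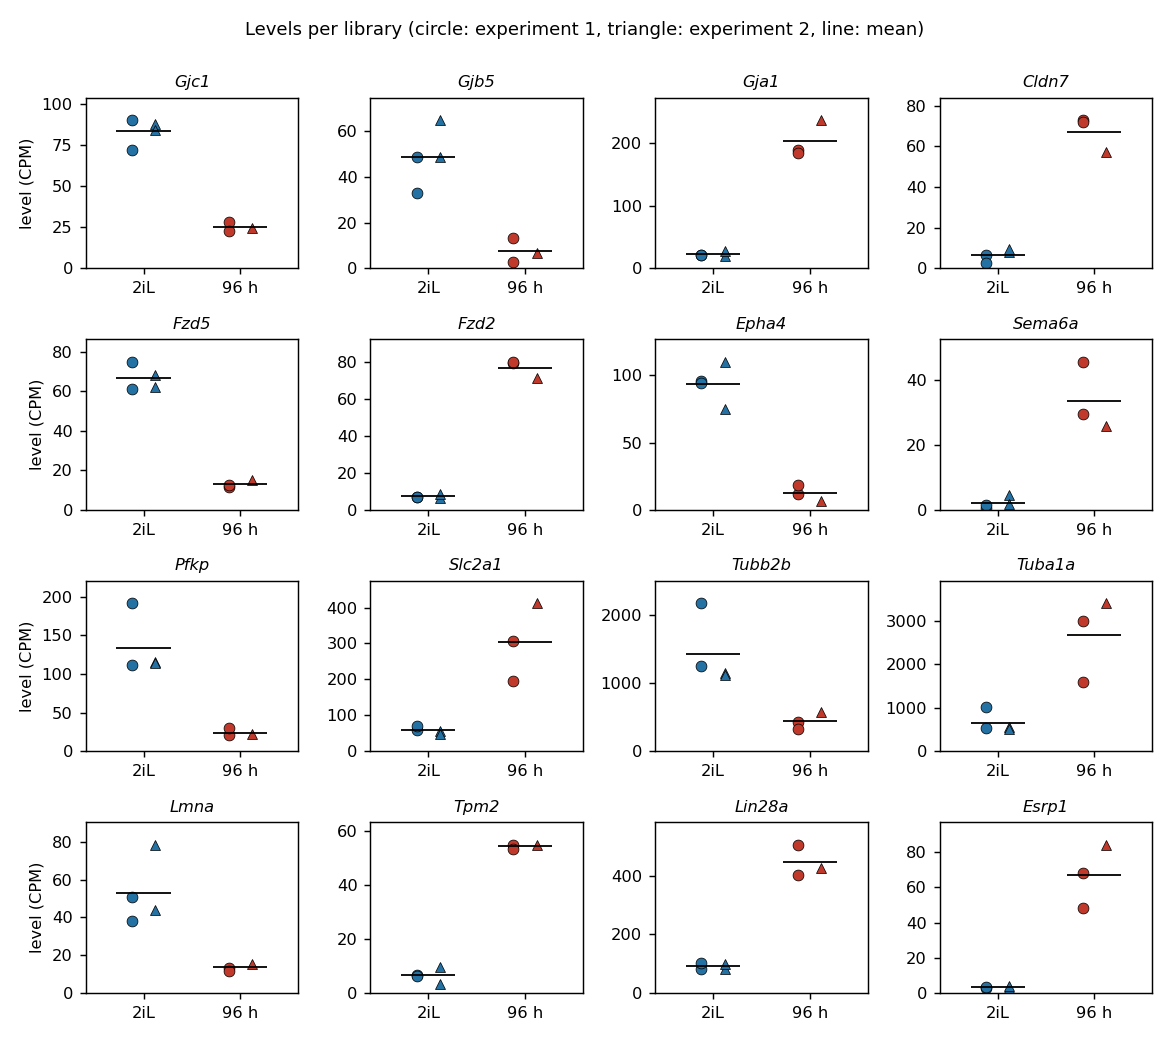
Levels of 16 genes in CPM, each panel with its own scale; circles are libraries of experiment 1, triangles those of experiment 2, blue is 2iL, red is 96 h and the line is the mean. The groups do not overlap in any panel, and Gjb5, Fzd5, Epha4, Pfkp, Tubb2b and Lmna were lower at 96 h where Gja1, Fzd2, Sema6a, Slc2a1, Tuba1a and Tpm2 were higher.

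In glycolysis, 4 of 28 genes rose and 7 fell (2 and 4 in experiment 1 alone), and paralogs of the same step went opposite ways. The glucose transporters Slc2a1 and Slc2a3, known as GLUT1 and GLUT3, measured 59.9, 71.9, 56.8 and 47.3 CPM in 2iL and 308, 196 and 412 CPM at 96 h (log2 fold change 2.37 ± 0.25, adjusted p = 5.87e-07) and 299, 216, 404 and 417 CPM in 2iL and 67.5, 67.5 and 153 CPM at 96 h (log2 fold change -1.80 ± 0.31, adjusted p = 2.53e-04). For phosphofructokinase, the committed step, the platelet-type subunit Pfkp measured 112, 192, 115 and 115 CPM in 2iL and 20.8, 29.8 and 22.0 CPM at 96 h (log2 fold change -2.46 ± 0.27, adjusted p = 9.48e-07), and the liver-type subunit Pfkl 18.6, 54.1, 23.04 and 35.9 CPM in 2iL and 65.2, 67.9 and 77.9 CPM at 96 h (log2 fold change 1.09 ± 0.30, adjusted p = 0.0112). Aldoc, the brain-type aldolase, fell from 32.4 ± 9.49 to 11.9 ± 3.18 CPM (log2 fold change -1.44 ± 0.36, adjusted p = 0.00581). Pfkl and Aldoc had adjusted p-values of 0.255 and 0.206 in experiment 1 alone.

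Nuclear genes of oxidative phosphorylation fell in 16 of 47 cases and none rose, with a median log2 fold change of -0.52 and a range of -1.16 to 0.19. Cox6a1, a subunit of cytochrome c oxidase, measured 452, 455, 551 and 469 CPM in 2iL and 227, 214 and 206 CPM at 96 h (log2 fold change -1.16 ± 0.21, adjusted p = 3.63e-04), and Ndufs8, of complex I, 91.9, 131, 136 and 119 CPM in 2iL and 56.4, 59.1 and 47.6 CPM at 96 h (log2 fold change -1.14 ± 0.23, adjusted p = 0.00107). The changes were small, and the groups of 25 of the 47 genes did not overlap, a share above the 30.9% over all tested genes. None of the 47 was called by edgeR in experiment 1 alone, where the median was -0.55 and 10 had an unadjusted p below 0.05, and 9 to 15 were called without any 1 library: 9 without the 2iL library exp2_1 or the 96 h library exp1_2, and 10 without the 96 h library exp2_2. Of the 11 mitochondrially encoded genes tested none was called by edgeR (median -0.20; none at an unadjusted p below 0.05), DESeq2 or limma-voom (2 at an unadjusted p below 0.05 in each), and of 75 mitochondrial ribosomal protein genes 1 was (median -0.09; none without the 96 h library exp1_1). Cox6a1 and Ndufs8 had adjusted p-values of 0.0561 and 0.0926 in experiment 1 alone.

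Cholesterol synthesis and uptake genes rose in 14 of 27 cases and fell in 2 (median log2 fold change 0.72). Mvd, which makes isopentenyl diphosphate from mevalonate diphosphate, measured 199, 288, 173 and 172 CPM in 2iL and 431, 1319.8 and 709.8 CPM at 96 h. All 3 libraries at 96 h were above 2iL, with experiment 1 library 2 the highest (log2 fold change 1.98 ± 0.37, adjusted p = 6.26e-04). Hmgcs1, the synthase of HMG-CoA, and Mvk, mevalonate kinase, rose by log2 fold changes of 1.04 ± 0.24 and 1.33 ± 0.29 (adjusted p = 0.00399 and 0.00211). Ebp, a sterol isomerase late in the pathway, fell, with 225, 154, 217 and 215 CPM in 2iL and 64.3, 71.2 and 104 CPM at 96 h (log2 fold change -1.34 ± 0.24, adjusted p = 3.07e-04). The summed level of the list was 3131 to 4091 CPM in 2iL and 5827, 8079 and 6382 CPM at 96 h. Without the 2iL library exp2_1 or exp2_2 or the 96 h library exp1_2 or exp2_2, 9 of the 27 were called higher. Called in experiment 1 alone were 2 higher and 1 lower, and 1 was lower without the 2iL library exp1_2, exp2_1 or exp2_2 or the 96 h library exp2_2. Hmgcs1 and Mvk had adjusted p-values of 0.206 and 0.172 in experiment 1 alone.

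Of 37 genes of amino acid and one-carbon metabolism, 5 rose and 6 fell, against 11.5% and 8.9% of all tested genes. Of the rising genes 3 were called without the 2iL library exp2_1 or exp2_2 or the 96 h library exp2_2, and experiment 1 alone called 1 higher and 4 lower. Asns, asparagine synthetase, measured 182, 244, 322 and 349 CPM in 2iL and 96.3, 71.2 and 76.7 CPM at 96 h (log2 fold change -1.75 ± 0.26, adjusted p = 3.62e-05). Bcat1, the cytosolic branched-chain aminotransferase, fell from 364 ± 67.7 to 124 ± 15.3 CPM (log2 fold change -1.55 ± 0.22, adjusted p = 2.79e-05), and Slc7a1, a carrier of cationic amino acids, from 98.9 ± 16.0 to 46.1 ± 7.17 CPM (log2 fold change -1.10 ± 0.26, adjusted p = 0.00402). Mthfd2, the mitochondrial folate enzyme, was higher, with 128, 107, 102 and 95.002 CPM in 2iL and 176, 215 and 290.0 CPM at 96 h (log2 fold change 1.07 ± 0.22, adjusted p = 0.00149). Mthfd2 had an adjusted p of 0.209 in experiment 1 alone.

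Lysosomal genes and their regulators fell in 10 of 30 cases and rose in 2. Experiment 1 alone called 6 lower and none higher, and 1 was higher without the 2iL library exp1_1, exp2_1 or exp2_2 or the 96 h library exp1_2. Among the regulators, which drive lysosome genes when nutrients are short, Tfeb measured 71.9, 55.3, 43.0 and 44.0 CPM in 2iL and 7.34, 8.84 and 19.4 CPM at 96 h (log2 fold change -2.18 ± 0.35, adjusted p = 1.23e-04) and Mitf 23.3, 39.2, 38.4 and 40.3 CPM in 2iL and 1.47, 2.16 and 0.881 CPM at 96 h (log2 fold change -4.48 ± 0.46, adjusted p = 4.80e-07). Tfe3, another of these regulators, went the other way and rose (log2 fold change 0.90). Tfe3 lost its call without the 2iL library exp1_1, exp2_1 or exp2_2 or the 96 h library exp1_2 (adjusted p = 0.0539 to 0.231). Among the hydrolases, Ctsb, the protease cathepsin B, measured 54.3, 59.1, 80.2 and 88.7 CPM in 2iL and 20.3, 17.7 and 11.5 CPM at 96 h (log2 fold change -2.09 ± 0.36, adjusted p = 2.40e-04), while Glb1, a beta-galactosidase, fell by 1.97 on the log2 scale (adjusted p = 4.19e-05). Rragd, a Rag GTPase that links the lysosome to mTORC1, rose from 25.9 ± 4.78 to 65.5 ± 17.6 CPM (log2 fold change 1.33 ± 0.26, adjusted p = 7.44e-04). Rragd had an adjusted p of 0.0669 in experiment 1 alone.

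Among 17 writers and erasers of DNA methylation, 4 rose and 3 fell. The fall of Tet2 is given above, and Tet3, the enzyme of the same family, rose from 3.49 ± 1.97 to 13.0 ± 0.246 CPM (log2 fold change 1.90 ± 0.48, adjusted p = 0.00658). Uhrf1, which brings the maintenance methyltransferase to replicated DNA, measured 157, 121, 208 and 193 CPM in 2iL and 107, 74.8 and 81.4 CPM at 96 h (log2 fold change -0.95 ± 0.23, adjusted p = 0.00545). Of 16 germline genes 5 rose and 2 fell, against 3 and 0 in experiment 1 alone, and 1 fell without the 2iL library exp1_1 or the 96 h library exp2_2. Sycp3, a synaptonemal complex protein, measured 1.67, 3.22, 2.46 and 1.11 CPM in 2iL and 22.6, 18.8 and 11.5 CPM at 96 h (log2 fold change 3.01 ± 0.45, adjusted p = 4.58e-05), whereas Dazl, a germ cell RNA-binding protein, fell from 17.7 ± 5.48 to 3.96 ± 0.885 CPM (log2 fold change -2.14 ± 0.47, adjusted p = 0.00216). Uhrf1 and Dazl had adjusted p-values of 0.308 and 0.0821 in experiment 1 alone.

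Of 47 chromatin regulators 4 rose and 6 fell, a share of calls near the 20.4% over all tested genes, and 2 and 4 did so in experiment 1 alone. Chd7, a remodeller of enhancers, measured 57.3, 63.5, 52.5 and 69.1 CPM in 2iL and 173, 213 and 143 CPM at 96 h (log2 fold change 1.54 ± 0.22, adjusted p = 2.18e-05), and Satb1, an organiser of chromatin loops, rose from 9.31 ± 2.14 to 36.0 ± 11.5 CPM (log2 fold change 1.95 ± 0.32, adjusted p = 1.61e-04). Arid5b, a DNA-binding partner of a histone demethylase, fell from 178 ± 23.3 to 56.9 ± 7.55 CPM (log2 fold change -1.64 ± 0.27, adjusted p = 1.44e-04), and Hmga2, an architectural protein, from 46.5 ± 10.7 to 11.7 ± 4.47 CPM (log2 fold change -1.99 ± 0.33, adjusted p = 1.73e-04). Eed, a core subunit of Polycomb repressive complex 2, measured 162, 122, 128 and 152 CPM in 2iL and 70.2, 49.2 and 85.5 CPM at 96 h (log2 fold change -1.05 ± 0.26, adjusted p = 0.00560). Smarcd3, a subunit of the BAF remodelling complex, measured 50.3, 40.6, 34.7 and 35.9 CPM in 2iL and 2.06, 4.96 and 1.18 CPM at 96 h (log2 fold change -3.81 ± 0.48, adjusted p = 5.70e-06). Smarcd3 had a log2 fold change of -4.61 without the 96 h library exp1_2 (adjusted p = 6.45e-06).

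Imprinted genes rose in 15 of 28 cases and fell in 3 (median log2 fold change 1.39). Grb10, an adaptor that restrains growth factor receptors, measured 4.995, 7.31, 12.9 and 5.91 CPM in 2iL and 83.7, 49.8 and 84.3 CPM at 96 h (log2 fold change 3.21 ± 0.33, adjusted p = 4.88e-07). Magel2, of the Prader-Willi region, measured 0, 0.585, 0.307 and 0.370 CPM in 2iL and 14.97, 10.1 and 12.04 CPM at 96 h (log2 fold change 5.11 ± 0.84, adjusted p = 1.34e-04). Cdkn1c, an inhibitor of cyclin-dependent kinases, rose from 3.69 ± 1.38 to 23.03 ± 8.19 CPM (log2 fold change 2.64 ± 0.39, adjusted p = 4.40e-05). Among those that fell, Plagl1, a zinc finger regulator of an imprinted network, measured 60.9, 51.5, 81.7 and 73.9 CPM in 2iL and 3.52, 2.16 and 0.294 CPM at 96 h (log2 fold change -5.04 ± 0.55, adjusted p = 9.81e-07), and Ddc, the decarboxylase that makes dopamine, 54.6, 47.1, 29.8 and 58.0 CPM in 2iL and 8.22, 5.61 and 10.3 CPM at 96 h (log2 fold change -2.56 ± 0.39, adjusted p = 5.07e-05). Counts of 3′ ends do not tell the parental alleles apart. In experiment 1 alone 14 of the 28 were called higher and 2 lower.

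RNA-binding proteins and splicing regulators rose in 12 of 38 cases and fell in 1. Esrp1, the epithelial splicing regulator, measured 2.66, 3.51, 3.07 and 3.70 CPM in 2iL and 68.4, 48.3 and 84.3 CPM at 96 h (log2 fold change 4.36 ± 0.34, adjusted p = 2.03e-08). Elavl3, a neuronal Hu protein that stabilises transcripts, measured 0.666, 1.75, 3.07 and 3.70 CPM in 2iL and 51.7, 63.8 and 44.1 CPM at 96 h (log2 fold change 4.53 ± 0.404, adjusted p = 9.81e-08), and Lin28b, the relative of Lin28a, 1.998, 6.73, 3.07 and 3.33 CPM in 2iL and 25.8, 44.0 and 55.2 CPM at 96 h (log2 fold change 3.43 ± 0.44, adjusted p = 8.38e-06). Esrp1 was at or under 3.7 CPM in the 4 libraries in 2iL and at 48.3 CPM or more at 96 h. Ptbp3, a repressor of exons, was the gene that fell, from 136 ± 25.9 to 54.6 ± 7.89 CPM (log2 fold change -1.32 ± 0.24, adjusted p = 3.71e-04). In experiment 1 alone 6 of the 38 were called higher, and 8 to 9 without any 1 library, while 2 were called lower without the 2iL library exp1_1 or the 96 h library exp1_2.

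Genes of replication and mitosis were not called in either direction, 0 of 32 (median log2 fold change -0.10, range -0.73 to 0.64), and leaving out any 1 library called at most 1. In edgeR 3 of the 32 had an unadjusted p below 0.05, and DESeq2 and limma-voom called 1 each. The groups of 4 of the 32 did not overlap, a share below the 30.9% over all tested genes. Among 21 genes of the G1 phase, 2 rose and 4 fell, against 1 and 2 in experiment 1 alone, and 1 rose without the 96 h library exp2_2. Ccnd3, a D-type cyclin, measured 579, 386, 426 and 432 CPM in 2iL and 149, 184 and 233 CPM at 96 h (log2 fold change -1.27 ± 0.24, adjusted p = 5.70e-04), and its partner kinase Cdk6 fell from 105 ± 23.2 to 36.1 ± 10.8 CPM (log2 fold change -1.55 ± 0.30, adjusted p = 6.53e-04).

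Apoptosis and p53 genes rose in 8 of 29 cases and fell in 2. Experiment 1 alone called 5 higher and none lower, and Trp53, one of the falling genes, lost its call without any 1 of the 7 libraries (adjusted p = 0.0543 to 0.158). Both sides of the BCL2 family were among those that rose. Bcl2, which blocks apoptosis, measured 1.67, 0.585, 2.46 and 1.48 CPM in 2iL and 11.2, 8.84 and 16.5 CPM at 96 h (log2 fold change 2.94 ± 0.58, adjusted p = 7.86e-04). Pmaip1, the BH3-only protein Noxa that promotes it, measured 5.99, 9.94, 11.98 and 6.65 CPM in 2iL and 47.3, 37.5 and 45.5 CPM at 96 h (log2 fold change 2.31 ± 0.33, adjusted p = 2.43e-05). Perp, a desmosome-associated effector of p53, rose from 3.97 ± 1.53 to 27.4 ± 4.98 CPM (log2 fold change 2.77 ± 0.396, adjusted p = 2.79e-05). Mdm4, an inhibitor of p53, measured 162, 119.6, 143 and 149.7 CPM in 2iL and 82.2, 70.1 and 82.6 CPM at 96 h (log2 fold change -0.87 ± 0.21, adjusted p = 0.00451). Mdm4 had an adjusted p of 0.105 in experiment 1 alone.

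Heat shock and oxidative stress genes rose in 5 of 26 cases and fell in 6, against 11.5% and 8.9% of all tested genes. The rising count was 3 without the 2iL library exp1_1 or exp2_1 or the 96 h library exp1_1, 2 without the 96 h library exp1_2, and 1 in experiment 1 alone, where 4 fell. Hspb1, the small heat shock protein Hsp27, measured 382, 289.8, 283 and 294 CPM in 2iL and 51.4, 54.1 and 79.9 CPM at 96 h (log2 fold change -2.34 ± 0.27, adjusted p = 2.41e-06). Nqo1, a quinone reductase under Nrf2, fell from 66.7 ± 19.14 to 18.2 ± 1.48 CPM (log2 fold change -1.87 ± 0.31, adjusted p = 1.39e-04), and Sod2, the mitochondrial superoxide dismutase, measured 314, 163, 185 and 226 CPM in 2iL and 81.0, 46.6 and 98.7 CPM at 96 h (log2 fold change -1.56 ± 0.32, adjusted p = 0.00127). Gpx3, a secreted glutathione peroxidase, was higher, with 1.67, 4.39, 7.68 and 3.70 CPM in 2iL and 23.5, 31.1 and 20.6 CPM at 96 h (log2 fold change 2.50 ± 0.38, adjusted p = 5.37e-05).

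Among gene families, 8 of 39 Hox genes had enough reads to test, and 7 of these 8 fell and none rose (median log2 fold change -5.17). A gene nearly unread at 96 h can pass the read filter only through other libraries. The direction of these calls is therefore partly set by the filter, and the count and median are descriptions. Hox genes pattern the body axis and are mostly silent in ES cells. Levels were low: Hoxc9 measured 7.66, 2.92, 15.4 and 8.13 CPM in 2iL and 0, 0.431 and 0 CPM at 96 h, with 105 reads in 2iL and 2 at 96 h, a ratio of reads of 48.5, with an exact 95% counting interval of 13.1 to 406. Hoxc11 measured 4.66, 1.46, 6.45 and 12.2 CPM in 2iL and 0, 0 and 0.294 CPM at 96 h, a ratio of reads of 67.5, with an exact 95% counting interval of 11.7 to 2701. The 2iL libraries of experiment 2, which also carried T and Cdx1, were mostly the higher ones for Hoxc9 and Hoxc11, and the part of that difference in the calls was not tested. In experiment 1 alone 2 of the 8 were called lower, and 3 to 7 without any 1 library, with 3 without the 2iL library exp2_1 and 4 without exp1_1 or exp2_2 of 2iL.

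Of 20 forkhead genes 8 rose and 1 fell. Without the 2iL library exp2_1, 5 were called higher, without the 96 h library exp2_2, 2 were called lower, and in experiment 1 alone 2 were higher and none lower. Foxp1, a repressor that restrains several fates, measured 17.6, 23.1, 16.6 and 14.4 CPM in 2iL and 143, 152 and 186 CPM at 96 h (log2 fold change 3.15 ± 0.23, adjusted p = 8.93e-09), and Foxo1, a target of Akt, rose from 32.5 ± 6.25 to 71.7 ± 7.51 CPM (log2 fold change 1.14 ± 0.23, adjusted p = 0.00120). Of 14 Klf genes 2 rose and 4 fell, and the 2 that rose were Klf6 and Klf7. Klf6 measured 126, 102, 114 and 102 CPM in 2iL and 282, 299.8 and 381 CPM at 96 h (log2 fold change 1.53 ± 0.21, adjusted p = 1.71e-05) and Klf7 22.98, 25.4, 31.0 and 26.2 CPM in 2iL and 133, 96.6 and 164 CPM at 96 h (log2 fold change 2.31 ± 0.24, adjusted p = 5.45e-07). Of 82 cytosolic ribosomal protein genes 3 fell and none rose, a share of calls below the 20.4% over all tested genes. The 3 were Rpl39l, Rpl10l and Rpl7l1, of which Rpl39l and Rpl10l are retrogene-derived paralogs best known from the testis. Their sequences resemble those of Rpl39 and Rpl10, and reads without a unique alignment were not counted, so these values may miss reads. Rpl39l measured 77.6, 57.0, 75.2 and 79.5 CPM in 2iL and 6.17, 9.70 and 8.52 CPM at 96 h (log2 fold change -3.14 ± 0.33, adjusted p = 6.14e-07), and Rpl10l 69.9, 60.2, 63.3 and 58.0 CPM in 2iL and 20.8, 12.3 and 10.6 CPM at 96 h (log2 fold change -2.11 ± 0.33, adjusted p = 9.00e-05). Of 271 zinc finger genes named Zfp 22 rose and 30 fell, a share of calls near the 20.4% over all tested genes. In experiment 1 alone 10 rose and 13 fell, and 19 fell without the 96 h library exp1_2. Foxo1 had an adjusted p of 0.0524 in experiment 1 alone.

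Of 189 solute carriers, 24 rose and 27 fell, against 14 and 15 in experiment 1 alone. The rising share lay near the 11.5% over all tested genes, and the falling share above the 8.9%. Slc1a3, the glial glutamate transporter, measured 0.666, 0.585, 0.307 and 1.11 CPM in 2iL and 22.3, 27.6 and 20.6 CPM at 96 h (log2 fold change 5.10 ± 0.44, adjusted p = 6.05e-08), and Slc52a3, a riboflavin transporter, 18.6, 8.77, 17.5 and 22.9 CPM in 2iL and 0.587, 0.647 and 0.881 CPM at 96 h (log2 fold change -4.52 ± 0.64, adjusted p = 2.60e-05). Of 18 potassium channel genes 3 rose and 1 fell (2 fell in experiment 1 alone or without the 96 h library exp2_2), a share of calls near the 20.4% over all tested genes. Kcnk1, a two-pore channel, measured 0.999, 5.26, 3.69 and 4.44 CPM in 2iL and 37.6, 33.6 and 38.5 CPM at 96 h (log2 fold change 3.33 ± 0.38, adjusted p = 1.66e-06). Among 42 Rab GTPases 5 rose and 2 fell, a share of calls below the 20.4% over all tested genes. Called in experiment 1 alone were 2 higher and 1 lower, 3 were higher without the 96 h library exp1_1, and 1 was lower without the 2iL library exp2_2 or the 96 h library exp1_2. Rab25, of epithelial recycling endosomes, measured 6.99, 2.63, 3.99 and 4.44 CPM in 2iL and 25.5, 43.8 and 22.0 CPM at 96 h (log2 fold change 2.76 ± 0.46, adjusted p = 1.72e-04).

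**Figure D3:**
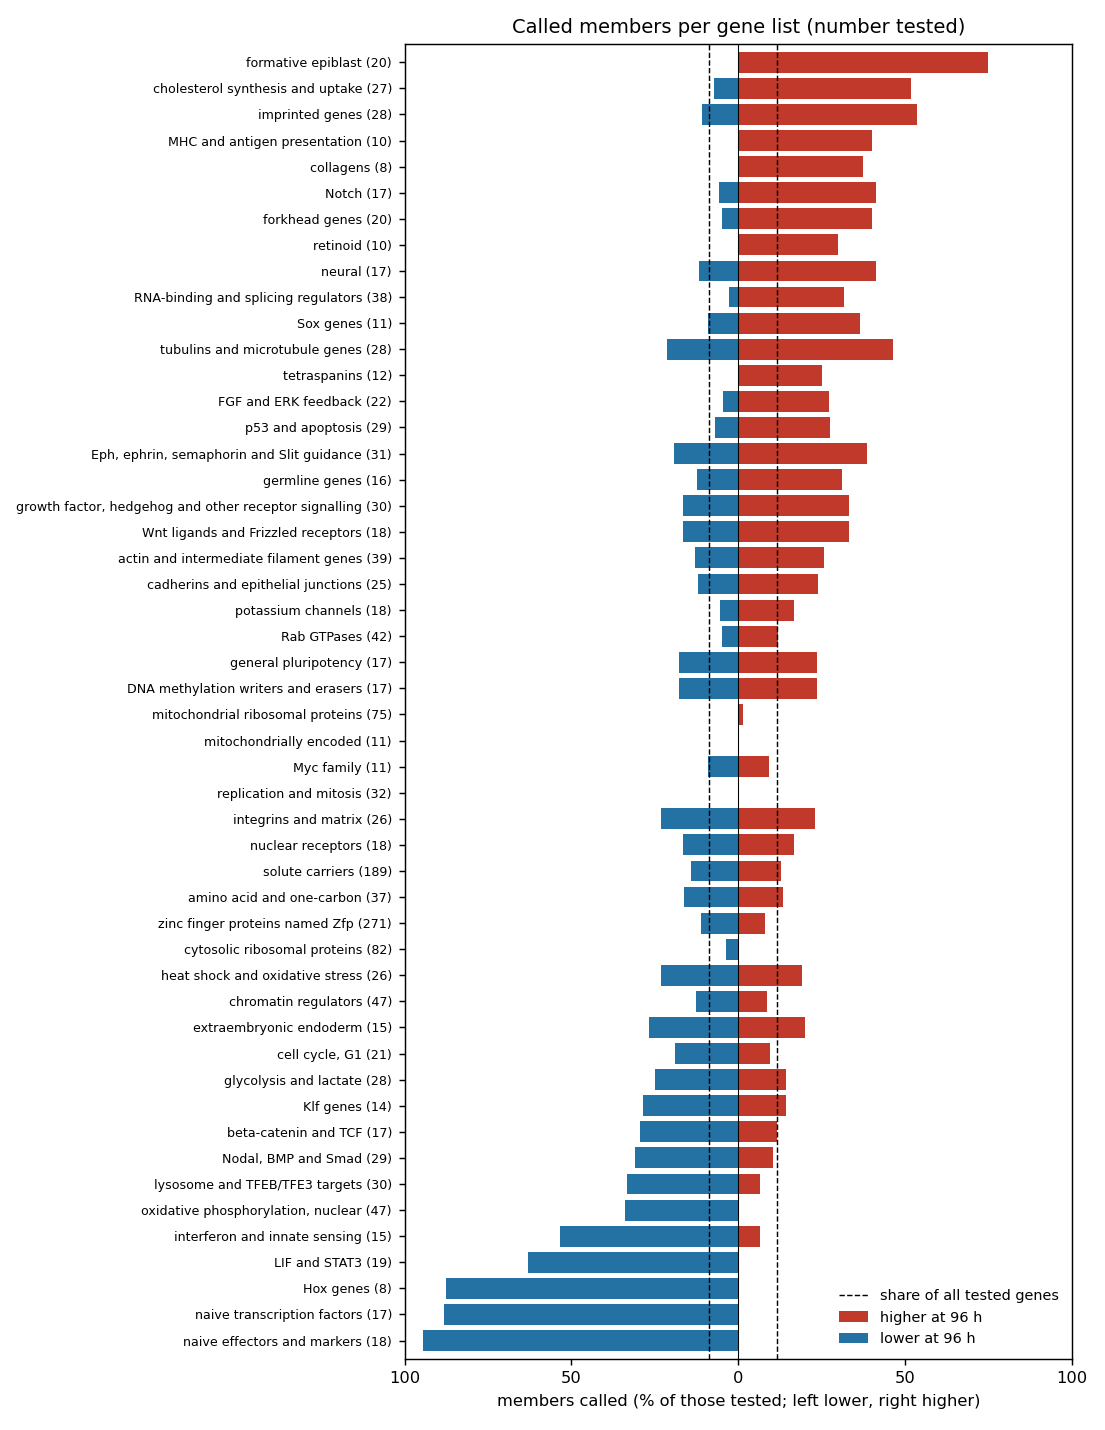
Share of tested members of each gene list or family called higher (right, red) or lower (left, blue) at 96 h, in percent, with the number tested in brackets; dashed lines mark the shares over all tested genes, 11.5% higher and 8.9% lower. The formative list reached 15 of 20 higher, and the naive lists, the LIF and STAT3 list and Hox genes lie at the lower end.

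RefSeq promoter windows of GRCm38.p6 (mm10), from 250 bases before to 50 bases after a gene's start, were matched by symbol for 8829 tested genes, 981 of them called higher and 772 called lower. The median GC content was 64.7% for genes that rose, 60.3% for genes that fell and 61.3% for genes not called. Windows poor in CpG, with an observed over expected ratio under 0.4, made up 14.3% of the rising, 21.0% of the falling and 9.12% of the uncalled genes. Motifs were searched on both strands as exact letters. The STAT letters TTCCNGGAA were in 18 of the falling genes (2.33%), 7 of the rising genes (0.714%), 1.43% of genes not called and 1.35% of all 27025 genes with a window. The TCF letters CTTTGAA were in 5.05%, 3.87%, 4.03% and 5.93%, in the same order. The letters TCAAGGTCA, bound by Esrrb and related receptors, were in 4 falling genes (0.518%), no rising gene, 0.339% of genes not called and 0.466% of all. They contain the shorter receptor letters AAGGTCA, found in 5.18%, 3.47%, 3.63% and 5.38%. These shares are descriptions, and a match is not a shown binding site.

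The promoter stretches below show these letters, in capitals, in genes whose values appear in the text, and in Bhmt, which was chosen after its values were seen. All lie upstream of the gene's start and are printed on the gene's strand. Crxos, a homeobox gene of the naive list, and Aldoc carry the STAT letters and fell, and Bst2 carries them and rose. Lin28a and Foxp1 carry the TCF letters and rose, and Oas1a and Slc7a1 carry them and fell. Bhmt, a betaine methyltransferase, carries the Esrrb-type letters and fell by 3.95 on the log2 scale. The windows are Crxos chr7:15901396-15901438 (+), Aldoc chr11:78324085-78324153 (+), Bst2 chr8:71537570-71537638 (-), Lin28a chr4:134018852-134018918 (-), Foxp1 chr6:99266684-99266750 (-), Oas1a chr5:120907587-120907653 (-) and Bhmt chr13:93637795-93637863 (-).
Crxos: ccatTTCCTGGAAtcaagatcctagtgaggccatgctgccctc
Aldoc: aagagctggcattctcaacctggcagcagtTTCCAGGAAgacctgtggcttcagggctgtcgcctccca
Bst2: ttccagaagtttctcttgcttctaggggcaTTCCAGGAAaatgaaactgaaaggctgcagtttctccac
Lin28a: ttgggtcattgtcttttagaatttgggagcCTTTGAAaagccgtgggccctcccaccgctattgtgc
Foxp1: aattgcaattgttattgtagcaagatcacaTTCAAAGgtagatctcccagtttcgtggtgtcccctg
Oas1a: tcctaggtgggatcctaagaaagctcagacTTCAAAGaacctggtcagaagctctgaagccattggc
Bhmt: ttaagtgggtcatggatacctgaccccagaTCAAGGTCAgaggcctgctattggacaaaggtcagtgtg
In Foxp1 and Oas1a the letters read CTTTGAA on the opposite strand. The stretch of Slc7a1 is not shown. Crxos, with the STAT letters at the far edge of its window, measured 305, 401, 431 and 596 CPM in 2iL and 6.46, 9.06 and 6.46 CPM at 96 h (log2 fold change -5.86 ± 0.35, adjusted p = 1.07e-09). The STAT letters and the TCF letters occur both in genes that fell and in genes that rose.

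Nearly all called genes moved the same way in both experiments. Of the rising genes with a value in experiment 1, 1284 of 1284 were higher there, and 1285 of 1291 were higher in experiment 2 (1 library at 96 h against 2 in 2iL). Of the falling genes, 973 of 974 were lower in experiment 1 and 998 of 998 in experiment 2. The calls used both experiments, so this is a description. The median log2 fold change of the rising genes was 2.13 in experiment 1 and 1.92 in experiment 2, and that of the falling genes -1.6 and -1.73. A test of the difference between experiments called 2 of 10596 genes (0.0189%), and 1154 had an unadjusted p below 0.05. With 1 library at 96 h in experiment 2, a gene that was not called may still differ between the experiments. Egr1, an immediate early gene downstream of ERK, measured 1.33, 3.22, 35.0 and 19.96 CPM in 2iL and 47.0, 58.2 and 10.9 CPM at 96 h. It was higher at 96 h in experiment 1 (log2 fold change 4.50) and not in experiment 2 (-1.31), a difference of -5.82 ± 0.75 (adjusted p = 0.0103). T measured 4.33, 1.46, 70.6 and 62.5 CPM in 2iL and 5.29, 2.37 and 0.294 CPM at 96 h, with a log2 fold change of 0.40 in experiment 1 and -7.63 in experiment 2 (difference -8.03 ± 1.16, adjusted p = 0.0204). Without the 2iL library exp1_2 the test called 119 genes, without the 96 h library exp1_1 54, without the 96 h library exp1_2 9, without the 2iL library exp2_2 1 and without the 2iL library exp2_1 none, with 699 genes at an unadjusted p below 0.05. Experiment 2 has a single 96 h library, so within it there is no estimate of the spread at 96 h.

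**Figure D4:**
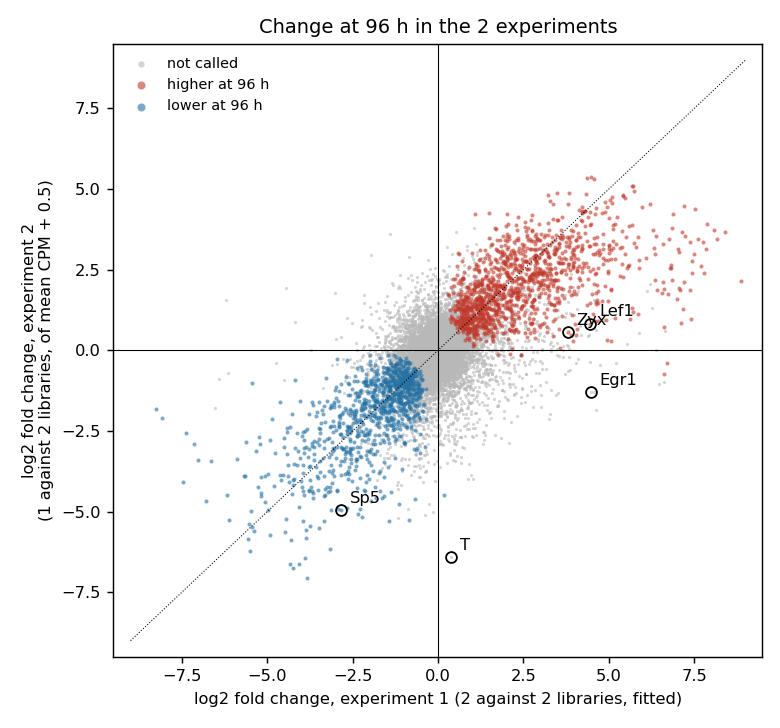
Log2 fold change of each tested gene in experiment 1 (horizontal, fitted, 2 libraries against 2) and in experiment 2 (vertical, from mean CPM + 0.5, 1 library against 2), with called genes in red and blue and the dotted line marking equal change. T and Egr1, the 2 genes whose change differed between experiments, lie off the diagonal, and Sp5, Lef1 and Zyx are marked as genes with unequal changes that were not called in that test.

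**Figure D5:**
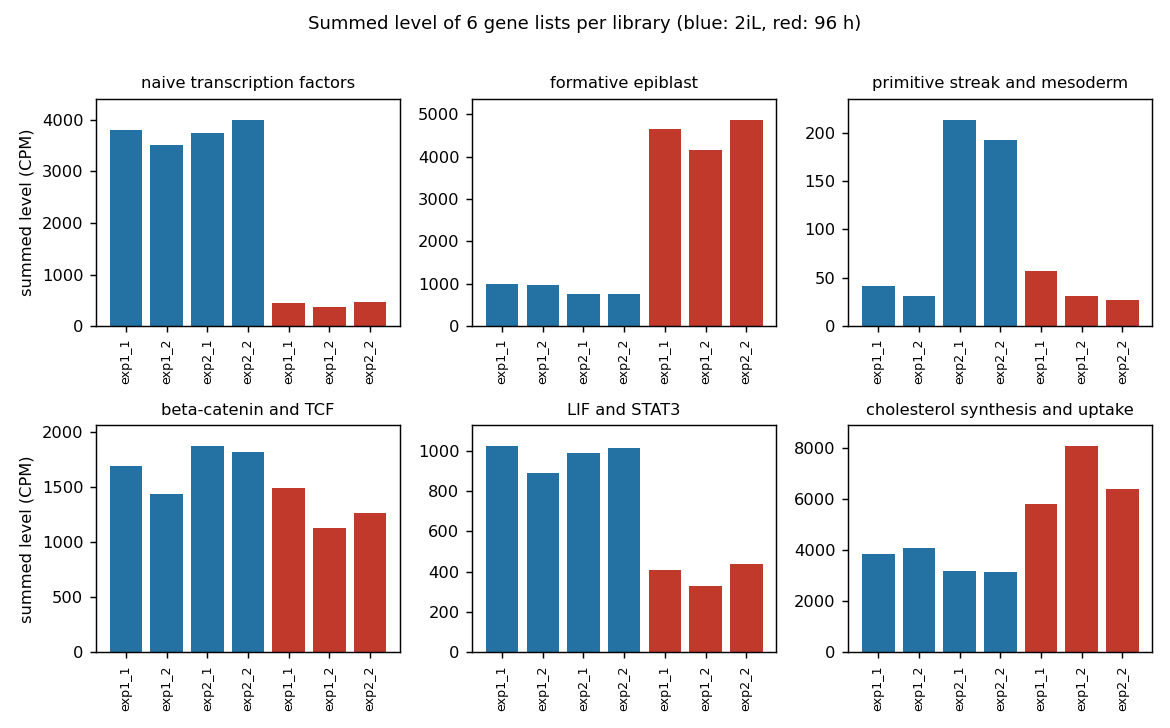
Summed level in CPM of 6 gene lists in each library, blue for 2iL and red for 96 h, each panel with its own scale starting at 0. The naive, formative, LIF and cholesterol lists separate the groups in both experiments, whereas the streak list is high only in the 2iL libraries of experiment 2, at 214 and 193 CPM.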

How the data were processed

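Read counts per gene, deposited by the authors as 1 file per library, were used for every test. Per the labels' protocols, RNA was made into 3′ digital gene expression libraries, and per the submitters' processing notes reads were processed with bcl2fastq, STAR 2.6.0a and HTSeq on mm10. Neither the annotation release nor the strand setting is named in these sources. Each file listed 31053 genes, and 5 summary lines, with 62.7% to 67.5% of the reads of the 7 libraries, were removed. The summary line of reads without a unique alignment alone held 56.4% to 61.1%. Symbols were matched by Ensembl ID (30934 of 31053), and positions came from GENCODE on mm10.

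Genes were kept with filterByExpr (minimum count 10) and scaled by TMM. edgeR 4.0.16 (R 4.3.3) fitted a quasi-likelihood model to all 10 libraries, with a contrast of 96 h without DOX against 2iL. Adjusted p-values are Benjamini-Hochberg over 11215 genes, with a threshold of 0.05. A second fit on the 7 libraries tested the difference between experiments. Levels are TMM-scaled CPM. The model was tested on simulated data. No pair of libraries held the same values or agreed within sampling noise. The deposited CPM table was not used.

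Named genes were up to 5 called members per direction of 42 lists and 3 of 15 families (5 CPM or more on average in one group), all members of 4 pluripotency and neural lists, the 15 largest fold changes and 12 largest CPM differences per direction, and genes called between experiments. Other list members are named only where a count would otherwise hide them. The comparison, lists and rule were chosen with earlier results of these data known. Counting intervals and the floor of 3 reads cover counting error only. Alternatives left out each library, used experiment 1 alone, blocks, DESeq2 1.42.0, limma 3.58.1 voom, other filters and other scalings.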

Additional observations from a re-analysis of the deposited data

Results flagged for a closer look

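Among the 353 genes that could be named, 26 had 1 of the 4 libraries in 2iL far from the other 3, by Dixon's ratio of the gap to the range at the 95% level. Chance alone flags about 1 in 20 such groups. The 3 libraries at 96 h are too few for this rule. Below 1 CPM a library in 2iL held a few reads at most, so a gap to 0 there can come from counting alone. That applies to Irs4, Tdrd1, Tubb4a, Arap3 and Cacng6 below. In the first library of experiment 1, 9 genes stood apart from the other 3 libraries in 2iL. Bcl2l11 measured 35.0 CPM against 9.98 to 12.3 CPM, and Gli2 measured 0.999 CPM against 8.48 to 9.24 CPM. Hspb1 measured 382 CPM against 283 to 294 CPM, and Irs4 measured 0.999 CPM against 0 CPM. Mitf measured 23.3 CPM against 38.4 to 40.3 CPM, and Ptprf measured 324 CPM against 204 to 214 CPM. Tuba1a measured 1016 CPM against 510.1 to 561 CPM, and Tubb2b measured 2175 CPM against 1127 to 1257 CPM. Zfp42 measured 241 CPM against 164 to 171 CPM. In the second library of experiment 1, 6 genes stood apart from the other 3 libraries in 2iL. Ebp measured 154 CPM against 215 to 225 CPM, and Pfkp measured 192 CPM against 112 to 116 CPM. Rif1 measured 541 CPM against 411 to 413 CPM, and Sfrp1 measured 261 CPM against 169 to 183 CPM. Tspan7 measured 1.46 CPM against 0.307 to 0.370 CPM, and Vim measured 172 CPM against 112 to 120.2 CPM. In the first library of experiment 2, 5 genes stood apart from the other 3 libraries in 2iL. Col4a1 measured 2.15 CPM against 3.80 to 4.07 CPM, and Pcdh1 measured 3.99 CPM against 0 to 0.585 CPM. Tdrd1 measured 0.614 CPM against 0 CPM, and Tubb4a measured 0.307 CPM against 0 CPM. Zyx measured 12.6 CPM against 3.00 to 4.44 CPM. In the second library of experiment 2, 6 genes stood apart from the other 3 libraries in 2iL. Arap3 measured 0.739 CPM against 0 CPM, and Cacng6 measured 0 CPM against 0.292 to 0.333 CPM. Car14 measured 2.59 CPM against 0 to 0.307 CPM, and Cnn2 measured 3.33 CPM against 7.02 to 7.66 CPM. Grhl2 measured 10.3 CPM against 2.05 to 2.76 CPM, and Tuba3a measured 203 CPM against 132 to 134 CPM.

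The change at 96 h differed between the experiments for Egr1 and T, by the test of the difference itself on the 7 libraries (edgeR quasi-likelihood test). For Egr1 the log2 fold change was lower in experiment 2 by -5.82 ± 0.75 (adjusted p = 0.0103), and for T by -8.03 ± 1.16 (adjusted p = 0.0204). Experiment 2 holds 1 library at 96 h, and without its first 2iL library no gene was called in this test.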

How the results depend on the processing

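The count of called genes, 2289, lay between 1848 and 2607 with other filters, scalings, tools and blocks, with all 7 libraries kept. It was 2718 when the 96 h library with DOX exp1_2 was left out of the fit. That library had the fewest reads in genes, 1253620. With a minimum count of 30 it was 1848, with no filter 2479, with DESeq2 2607, with limma-voom 2381, and with the 7 libraries alone 2467. In experiment 1 alone it was 1226, with 729 higher and 497 lower, and 1147 of these genes were among the 2289. Leaving out each library in turn gave 1779 to 2012 genes, 1028 to 1151 higher and 751 to 893 lower. Scaling by library size alone gave 60.2% of called genes as higher, against 56.4%. Of the 326 called genes that could be named, 260 were called without any single library, 88 were not called in experiment 1 alone, and none reversed under any alternative run.

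Deviations of libraries with the same replicate number in their titles correlated at 0.0062, 0.205 and -0.020. Those of the other pairs between the groups correlated at -0.154 to 0.133. So few same-numbered pairs cannot tell whether the numbers pair the libraries. With the replicate block 1973 genes were called, 1909 of them among the 2289, and with the experiment as block 2244.

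The test between experiments called 2 genes, 1 with a minimum count of 30, and 0 to 119 without each library in turn. No value was possible for it without the only 96 h library of experiment 2. With 3 to 4 libraries a group, changes in genes of a few CPM are the least certain.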

Other observations

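Some called genes stood beside each other on the chromosome. With tested protein-coding genes ordered by position, 57 runs of at least 3 neighbours were called in the same direction, 32 higher and 25 lower at 96 h. The runs were picked after the values were seen and carry no test. How many runs would arise among unrelated neighbours was not worked out. On chromosome 6, Gdf3, Dppa3, Nanog and Slc2a3 fell within 196.2 kb. The longest rising runs had 4 genes, among them Grk6, Prr7, Dbn1 and Pdlim7 within 68.6 kb on chromosome 13. The calcium channel subunits Cacng7, Cacng8 and Cacng6 rose within 102.7 kb on chromosome 7, and Armcx1, Armcx6 and Armcx2 within 91.26 kb on chromosome X.

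Of 375 tested genes on chromosome X, 66 rose (17.6%) and 36 fell (9.60%), against 11.5% and 8.9% of all tested genes. Chromosome 16 had the lowest share of rising genes among the nuclear chromosomes with over 100 tested genes, 6.20%, and the highest of falling genes, 11.8%. These shares are descriptions, and neighbouring genes are not independent.

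Beyond T and Cdx1, the 2iL libraries of experiment 2 were above those of experiment 1 for Cdx2, a caudal-type homeobox gene, with 0.333, 1.46, 13.5 and 20.7 CPM in the order used above, and for Evx1, a streak homeobox gene, with 2.33, 1.75, 15.7 and 10.7 CPM. L1td1, an RNA-binding protein of pluripotent cells, went the other way, with 865, 845, 431 and 506 CPM. The labels give both experiments the same medium.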
